A study of Mus musculus with 6 samples.

Results

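The genes of the major histocompatibility complex (MHC, called H2 in mice) and their antigen presentation partners were examined in lung alveolar type II cell isolates. A probe set, the array's unit of measurement, was a member if every gene symbol it carries starts with H2-. It was also a member if it names Tap1, Tap2, Tapbp, Tapbpl, B2m, Psmb8, Psmb9, Psmb10, Psme1, Psme2, Erap1, Cd74, Ciita, Cd1d1 or Nlrc5. This gave 84 of the array's 45101 probe sets, naming 50 genes. Of these, 36 name class I heavy chains and 21 name class II chains or their peptide editors. The other members name Cd74, Cd1d1, peptide loading, immunoproteasome and regulator genes, and H2-Ke6. H2-Ke6 lies in the MHC but encodes a steroid dehydrogenase, so it belongs to neither class. Several H2 genes at once are named by 12 probe sets, 8 of them in the Q and T families, 2 for H2-DMb1 with H2-DMb2, and 1 each for H2-K1 with H2-D1 and H2-Q5 with H2-K1. The Psme2 probe set also names its copy Psme2b. By Affymetrix naming, 7 members end in _s_at, shared by several transcripts, and 22 in _x_at, where some probes can bind other transcripts. Heavy chain genes are close copies, so a value on such a probe set cannot be given to 1 gene with certainty.

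The 3 Insig1-deleted pools came from mice with the SpC-rtTA and Otet-CRE transgenes, floxed Insig1 alleles and no Insig2 (Insig1 ∆/∆ /Insig2 -/-). The 3 floxed control pools (Insig1 flox/flox /Insig2 -/-) came from mice that lacked either of these transgenes and so kept Insig1, but also had no Insig2. All mice were 2 months old and the labels give doxycycline from E6.5 to E12.5. Deletion depends on a surfactant protein C promoter, active in type II cells and their precursors, and no group carried the complete Cre system with Insig1 intact, so the deletion and the Cre system cannot be told apart. Each array measured 1 pool of RNA, and the sources used here do not state how many mice went into one. INSIG proteins hold back SREBP, the transcription factor family of sterol and fatty acid synthesis.

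Class I molecules show peptides made inside the cell to CD8 T cells. The immunoproteasome cuts proteins, TAP carries the peptides into the endoplasmic reticulum, and tapasin loads them on a heavy chain paired with beta-2 microglobulin. Class II molecules show peptides from taken-up material to CD4 T cells, with the invariant chain CD74 as chaperone and H2-DM as peptide editor. NLRC5 and CIITA switch on the class I and class II genes. Dendritic cells, B cells and macrophages carry class II, and alveolar type II cells are among the few epithelial cells that also express it constitutively.

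The Insig1 probe set had signals of 1252, 1442 and 1750 in deleted pools and 2300, 3325 and 2960 in control pools, a log2 fold change of -0.95 ± 0.18 (SE) that missed the threshold (adjusted p = 0.096, limma). Correlations of log2 signal between arrays ran from 0.945 to 0.978 within genotypes and from 0.948 to 0.963 between them. Control replicate 3 had the lowest array weight (0.478). Of 14 listed type II cell markers 13 had a probe set of their own, all above the filter, and they summed to signals between 892862 and 1051438 in deleted pools and between 888530 and 1067190 in control pools. The isolates also held RNA of other cells. Markers of macrophages summed to 231263 to 249315 in deleted pools and 149461 to 200277 in control pools. Past the threshold 7 of 18 tested were higher, as were 0.315% of all probe sets tested. A large part of the sum is Lyz2, with 100098, 118284 and 123763 in deleted pools against 100179, 128895 and 138065 in control pools. Its log2 fold change was -0.09 ± 0.15, and the other 17 tested had values above 0. In such isolates more cells of a type and more RNA per cell cannot be told apart.

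The promoters of the class I heavy chains are shown because their genes gave both called members. The stretches are from RefSeq (GRCm38.p6, the C57BL/6J genome), where 33 of the 50 genes had a window of 250 bases before and 50 after the start of transcription, 37 windows in all. Capitals mark GGGATTCCC, a site of the NF-kappaB family in the class I enhancer, and the letters GATTGG, bound by NF-Y, which read as their reverse complement CCAATC here. The Y box has these letters too, and whether the matches marked here are the Y box of class I promoters was not tested. In H2-Q10 capitals mark the bases that align with these sites of H2-D1. The stretches lie at chr17:34000334-34000472 (H2-K1, minus strand), chr17:35262909-35263061 (H2-D1), chr17:35424663-35424815 (H2-Q6), chr17:35439008-35439154 (H2-Q7) and chr17:35469899-35470054 (H2-Q10), the last 4 on the plus strand.
H2-K1: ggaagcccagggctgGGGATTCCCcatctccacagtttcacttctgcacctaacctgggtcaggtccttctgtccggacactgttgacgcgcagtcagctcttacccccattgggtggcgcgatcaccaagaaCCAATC
H2-D1: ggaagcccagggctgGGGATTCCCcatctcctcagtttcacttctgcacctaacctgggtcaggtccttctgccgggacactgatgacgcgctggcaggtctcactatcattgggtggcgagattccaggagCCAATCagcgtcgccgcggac
H2-Q6: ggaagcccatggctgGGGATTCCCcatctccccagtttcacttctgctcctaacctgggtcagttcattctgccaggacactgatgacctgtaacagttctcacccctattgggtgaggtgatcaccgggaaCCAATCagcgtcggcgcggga
H2-Q7: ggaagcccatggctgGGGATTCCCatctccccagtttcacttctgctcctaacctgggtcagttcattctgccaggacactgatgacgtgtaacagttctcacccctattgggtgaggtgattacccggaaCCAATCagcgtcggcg
H2-Q10: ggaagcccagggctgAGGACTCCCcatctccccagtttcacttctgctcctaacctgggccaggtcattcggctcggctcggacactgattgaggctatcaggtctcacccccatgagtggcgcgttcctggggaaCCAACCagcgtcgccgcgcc

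The NF-kappaB site stood in the windows of H2-K1, H2-D1, H2-Q6 and H2-Q7. It was in 0.353% of all 32851 promoter windows. H2-Q10 was 85.9% identical to H2-D1 over 149 aligned bases, but its copies of both sites differ. Counted from 1 at the first base of each site as printed, the NF-kappaB site carries G1A and T5C, and the CCAATC site carries T5C. A match to these letters is a description of the sequence and not a measured binding site.

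Class II promoters are shown because class II members lay higher without passing the threshold. Here capitals mark the X box core AGCAAC, which RFX proteins bind beside the Y box, and the Y box letters GATTGG on either strand. H2-Eb1 has 2 matches to GATTGG, and which of them is its Y box was not tested. The stretches lie on the plus strand at chr17:34305760-34305847 (H2-Eb1) and chr17:34238802-34238862 (H2-Ob), and on the minus strand at chr17:34287857-34287932 (H2-Aa).
H2-Eb1: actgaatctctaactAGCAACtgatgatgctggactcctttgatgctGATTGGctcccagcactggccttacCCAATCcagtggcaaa
H2-Ob: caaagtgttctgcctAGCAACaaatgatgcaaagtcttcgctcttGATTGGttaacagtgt
H2-Aa: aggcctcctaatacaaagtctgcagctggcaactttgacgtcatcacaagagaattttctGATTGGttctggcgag

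The letters GATTGG were found in 24 of the 37 member windows, 64.9%, against 16.1% of all windows, and the X box core in 18.9% against 14.8%. Matches to the interferon element TTCNNTTTC stood in 13.5% of member windows and 8.56% of all windows. A further motif, the interferon gamma element GAS (TTCNNNGAA), stood in 8.11% of member windows and 8.30% of all windows. The windows of H2-K1, H2-D1, H2-Q6, H2-Q7 and H2-Q10 had no match to either of these, and that of H2-Aa none to the X box core. The search took these letters only, so a site that differs by a base was not counted. Lack of a match thus does not show that a promoter lacks the element. The sterol element core TCACNCCAC, bound by SREBP, was in none of the 37 member windows and in 1.24% of all windows. These motifs were searched on both strands, and no match of 1 motif overlapped a match of another in the member windows.

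Deleted pools had 2 antigen presentation probe sets past the threshold, both class I and both higher, and none lower. The filter on dim signals (mean log2 signal under 8.08 over the 6 pools) kept 63 of the 84 members, so 21 were not tested. Among all 27022 probe sets tested 85 were higher, 0.315%, and 2 lower. Before adjustment, limma's p was under 0.05 for 20 of the 63 in the higher direction and for none in the lower, where 4.84% of all tested were higher and 5.35% lower. In 18 of the 63 every deleted pool lay above every control pool, which 7.69% of all tested showed, and 1 showed the opposite, as 7.88% of all tested did. The fold change was above 0 for 56 of the 63, and for 12471 of the 27022. The median log2 fold change was 0.36 over the 63 and -0.02 over all tested. With the dim members included, the median difference of mean log2 signal was 0.37 over the 84 and -0.05 over all 45037 probe sets that are not controls. Most members thus lay higher in deleted pools by amounts the gene-by-gene test did not call.

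**Figure D1:**
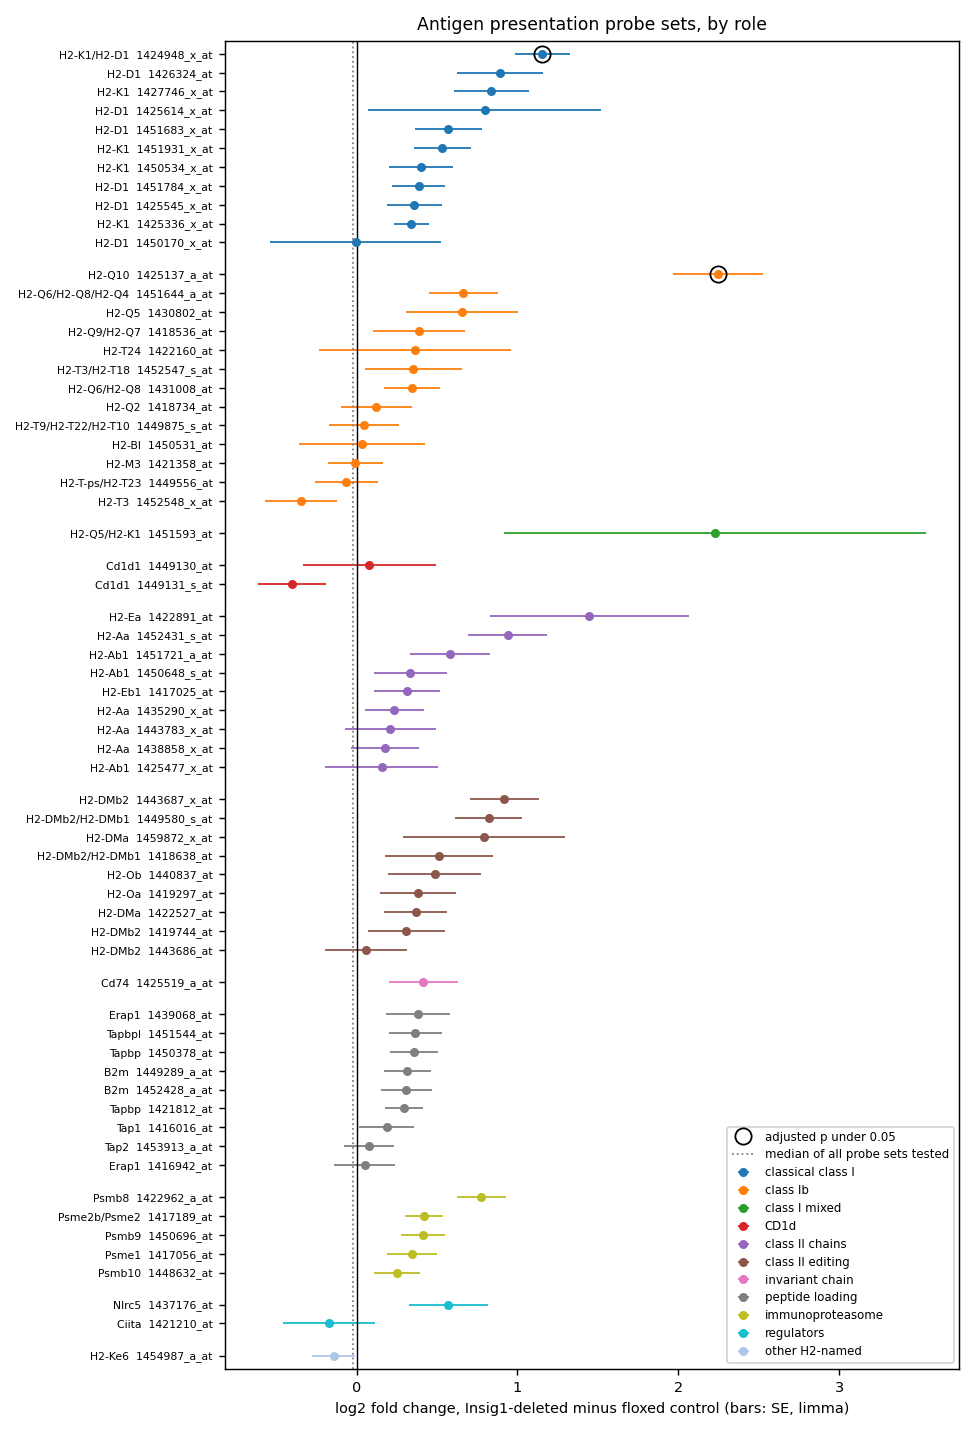
Log2 fold change (Insig1-deleted minus floxed control, horizontal axis) of the 63 antigen presentation probe sets tested, grouped by role, with limma standard errors as bars. The 2 ringed points, H2-Q10 at 2.25 and the probe set of H2-K1 and H2-D1 at 1.16, passed the threshold, and 56 points lie right of 0.

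H2-Q10 encodes a class I heavy chain that is secreted and in mice is best known from liver. Its probe set had signals of 977, 1079 and 1272 in deleted pools, against 204, 181 and 338 in control pools. All deleted pools were clearly above all control pools. The probe set rose 4.75-fold (1109 ± 150 in deleted and 241 ± 85.1 in control pools, SD, n = 3 each). Its log2 fold change was 2.25 ± 0.28 (adjusted p = 0.013, limma). Control signals lay around the filter level of 271, where a fold is least certain. The adjusted p lay between 0.052 and 0.11 without control replicate 1 or without any of the deleted replicates, while the log2 fold change stayed between 2.07 and 2.52.

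The other call was a probe set that names both H2-K1 and H2-D1, the classical heavy chains that nearly all cells carry. It had 13279, 20587 and 16233 in deleted pools and 8396, 6472 and 7392 in control pools, with no overlap. It rose 2.23-fold (log2 1.16 ± 0.17, adjusted p = 0.028). That call was lost without control replicate 1 (adjusted p = 0.066) and without deleted replicate 2 (0.14) or 3 (0.15). Which of the 2 genes it measures cannot be told apart.

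Probe sets that name H2-K1 or H2-D1 alone were higher by less. The brightest for H2-K1 had 56961, 66399 and 65718 in deleted pools against 47055, 50561 and 51538 in control pools. The groups did not overlap, and the log2 fold change was 0.34 ± 0.11 (95% interval 0.09 to 0.59, adjusted p = 0.34). All 4 H2-K1 probe sets lay between 0.34 and 0.84. The brightest for H2-D1 had 57223, 80047 and 78622 in deleted pools against 48995, 68234 and 51052 in control pools. Here control replicate 2 lay above deleted replicate 1, and the log2 fold change was 0.36 ± 0.17 (-0.03 to 0.75, adjusted p = 0.52). Over the 6 tested H2-D1 probe sets the values ran from -0.01 to 0.89, so probe sets of the same gene disagreed. At p under 0.05 before adjustment, 7 of 11 tested classical class I probe sets were higher and none lower, with a median log2 fold change of 0.53. At that measure 4.84% of all probe sets tested were higher, a share to set beside the later role and list counts too. All 11 name H2-K1 or H2-D1, which are close copies, so the 7 are not independent results. Not all of the 7 separated the groups. An H2-K1 one had 41340, 61308 and 57046 in deleted pools against 31741, 44430 and 33916 in control pools. An H2-D1 one had 17649, 26291 and 26825 against 13854, 20704 and 13256. On both, as on the brightest H2-D1 one, deleted replicates 2 and 3 and control replicate 2 were the highest pools.

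**Figure D2:**
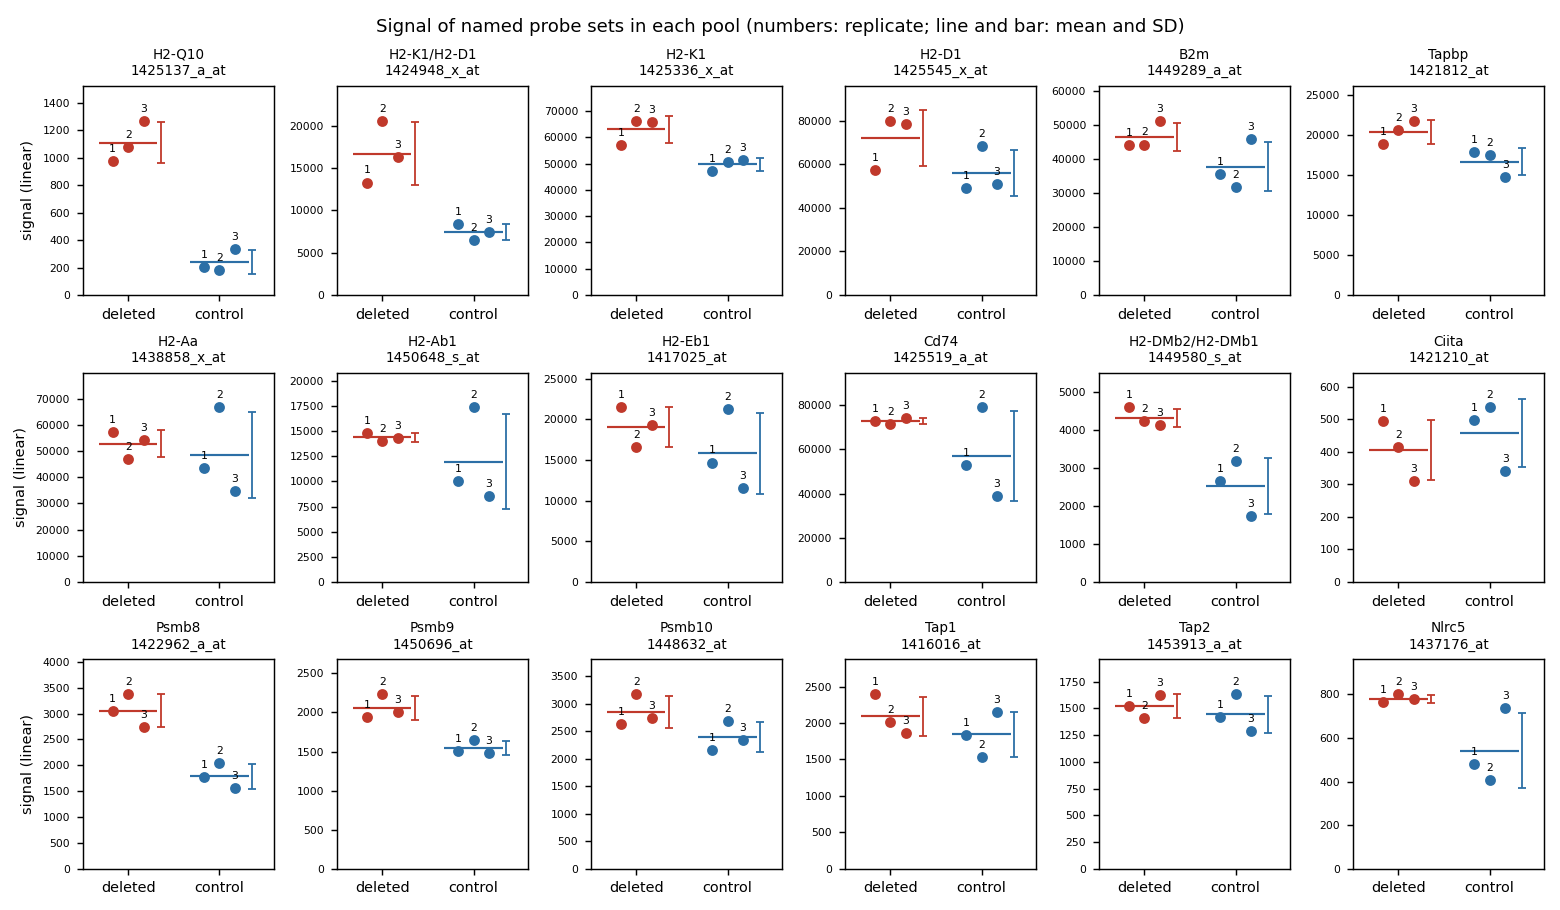
Linear signal (vertical axis, starting at 0) of 18 probe sets in each pool, Insig1-deleted left of floxed control, with replicate numbers, a line at the mean and a bar for the SD (n = 3). H2-Q10, the H2-K1/H2-D1 probe set, Psmb8 and Psmb9 show no overlap, while H2-Aa, H2-Ab1 and Cd74 overlap through control replicate 2.

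Class Ib heavy chains, the less variable relatives encoded in the Q, T and M regions, gave no pattern as uniform. Of 20 probe sets 13 were tested, 10 of them with values above 0 and a median of 0.35. Among the Q family, the probe set of H2-Q4, H2-Q6 and H2-Q8 had 2135, 1470 and 2213 in deleted pools against 1288, 960 and 1414 in control pools. Its groups did not overlap (log2 0.66 ± 0.21, adjusted p = 0.34). The probe set of H2-Q7 and H2-Q9, genes of the nonclassical molecule Qa-2, had 10192, 7128 and 8370 against 5760, 4377 and 10710. Control replicate 3 was the highest pool there (log2 0.39 ± 0.29, adjusted p = 0.70). H2-T23, which encodes Qa-1, the ligand of the NKG2A receptor of natural killer cells, gave -0.06 ± 0.20 on a probe set that it shares with the pseudogene H2-T-ps. H2-M3, which presents formylated bacterial peptides, gave -0.01 ± 0.17 (95% interval -0.40 to 0.38). The lowest value of the family was that of H2-T3, at -0.34 ± 0.22. The members below the filter were H2-M10.1, H2-M9, H2-T18 and dimmer probe sets of H2-Q5, H2-T23, H2-T3 and H2-T9/H2-T22/H2-T10.

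Some H2 probe sets showed wide gaps between pools of the same genotype. They are picked out here after their values were seen. The probe set of H2-Q5 and H2-K1 had 480, 14884 and 13429 in deleted pools, against 406, 4899 and 469 in control pools. Deleted replicates 2 and 3 and control replicate 2 were high and the other pools were close to the filter level, so its log2 fold change of 2.23 ± 1.31 was not called (adjusted p = 0.61). Leaving out each pool in turn gave 1.38 to 3.85. The dimmest tested H2-D1 probe set had 126, 665 and 619 in deleted pools against 220, 472 and 96 in control pools, with the same 3 pools high. Another, the H2-D1 probe set with the smallest p, had 4998, 10226 and 9990 against 3421, 4700 and 4989, where the groups did not overlap but deleted replicate 1 lay level with control replicate 3. A further dim one had 812, 294 and 300 against 204, 467 and 760, with other pools high.

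The same 3 pools were high on a probe set outside the membership rule, which names H2-Bl with Gm38417 and LOC547349. It had 245, 2348 and 2029 in deleted pools and 296, 1405 and 206 in control pools. H2 genes differ in sequence between inbred strains, and a probe made from the sequence of one strain may bind that of another poorly. The labels give engineered alleles and no strain background, and whether the pools differed in H2 haplotype was not tested.

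**Figure D3:**
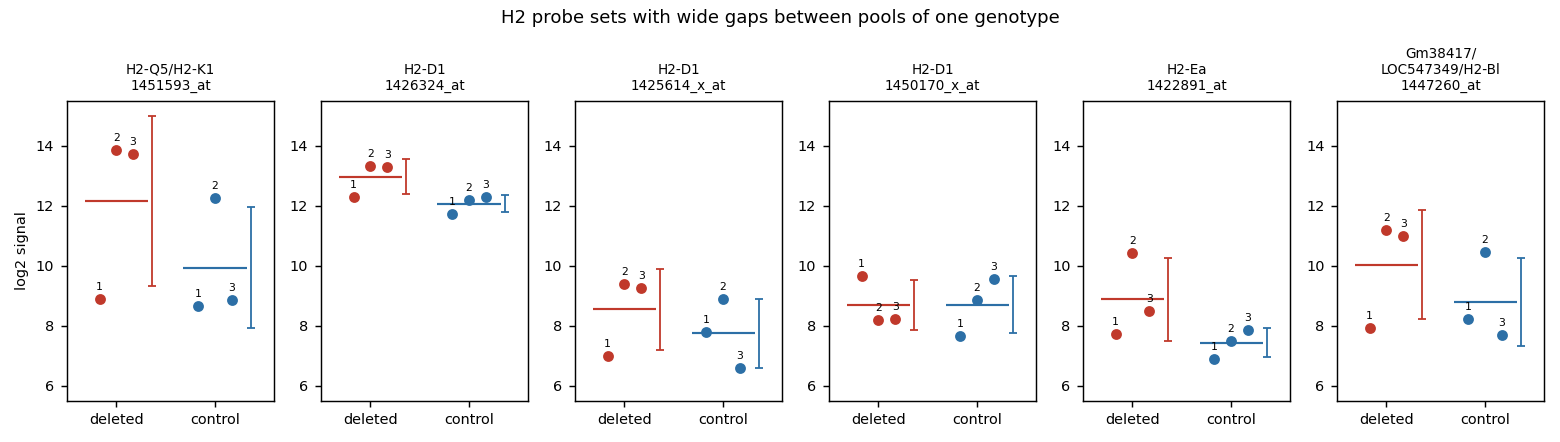
Log2 signal of 5 member probe sets and of 1 outside the rule (right) in each pool, Insig1-deleted left of floxed control, with replicate numbers, a line at the mean and a bar for the SD (n = 3). On the H2-Q5/H2-K1 probe set, the dimmest H2-D1 one and that of H2-Bl, deleted replicates 2 and 3 and control replicate 2 are the 3 highest pools.

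The genes that build and load class I molecules were higher by small amounts. B2m, the light chain of every class I molecule, had 44069, 44230 and 51259 in deleted pools against 35589, 31844 and 45730 in control pools. Control replicate 3 overlapped the deleted pools, and the log2 fold change was 0.32 ± 0.15 (adjusted p = 0.51), with 0.31 on the other probe set. Tapbp, which encodes tapasin, had 18856, 20679 and 21824 in deleted pools against 17836, 17473 and 14798 in control pools. Its groups did not overlap (log2 0.30 ± 0.12, adjusted p = 0.44), nor did those of its dimmer probe set (0.36 ± 0.15). Tapbpl, the gene of a tapasin relative that edits peptides, stood at 0.37 ± 0.17.

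The peptide transporter genes showed less. Tap1 had 2393, 2012 and 1868 in deleted pools against 1838, 1539 and 2157 in control pools, with overlap. Its log2 fold change was 0.19 ± 0.17 (95% interval -0.20 to 0.57). Tap2 had 1520, 1408 and 1629 in deleted pools against 1417, 1631 and 1288 in control pools, also with overlap, and its log2 fold change was 0.08 ± 0.16 (-0.27 to 0.43). The trimming peptidase gene Erap1 gave 0.05 ± 0.19 and 0.38 ± 0.20 on its probe sets. None of the 9 tested peptide loading probe sets passed by limma, and 2 were higher with p under 0.05 before adjustment.

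Immunoproteasome genes had values above 0 in all 5 tested probe sets, with none past the threshold by limma and 3 above 0 with p under 0.05 before adjustment (median log2 0.41). A dim Psmb8 probe set lay below the filter. Psmb8, which replaces the chymotrypsin-like subunit of the standard proteasome, had 3055, 3373 and 2738 in deleted pools against 1772, 2039 and 1560 in control pools. Every deleted pool lay above every control pool, by a log2 fold change of 0.77 ± 0.15 (1.71-fold, 95% interval 0.43 to 1.12, adjusted p = 0.096). It passed with array weights (adjusted p = 0.047) and without control replicate 2 (0.031). Psmb9 had 1940, 2232 and 2002 in deleted pools against 1510, 1648 and 1478 in control pools, also without overlap (log2 0.41 ± 0.14, adjusted p = 0.37). Psmb9 and Tap1 are transcribed in opposite directions from promoter windows that share 275 bases.

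Psmb10 had 2634, 3171 and 2732 in deleted pools against 2154, 2691 and 2347 in control pools, with overlap through control replicate 2 (log2 0.25 ± 0.14). Psme1 and Psme2 encode the activator PA28, which opens the proteasome. Psme1 had 16219, 19691 and 20091 in deleted pools against 15801, 16918 and 11798 in control pools (0.34 ± 0.16), with overlap. The Psme2/Psme2b probe set had 8328, 9814 and 10252 against 6849, 7515 and 6802 (0.42 ± 0.12, adjusted p = 0.28), without overlap. A list of 16 further proteasome genes held the standard counterparts Psmb5, Psmb6 and Psmb7, other core subunits, and the activator genes Psme3 and Psme4. None of them passed by limma, 2 were higher with p under 0.05 before adjustment, and the median log2 fold change was 0.06. Psmb7, the standard counterpart of Psmb10, stood at 0.36 ± 0.12 and Psmb1, another core subunit, at 0.28 ± 0.11. Psmb5, the counterpart of Psmb8, stood at 0.12 and Psmb6, that of Psmb9, at 0.05.

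Class II chains did not pass in any of 9 tested probe sets by limma, and 3 were higher with p under 0.05 before adjustment. H2-Aa, the alpha chain of I-A, had 57099, 47124 and 54330 in deleted pools against 43673, 66652 and 34717 in control pools. Control replicate 2 was the highest pool and control replicate 3 the lowest, so the control pools spread wider than the genotypes differed (log2 0.18 ± 0.21, 95% interval -0.30 to 0.65). H2-Ab1, the beta chain of I-A, had 14834, 14022 and 14298 in deleted pools against 10032, 17361 and 8530 in control pools. Its deleted pools lay close together between control replicates 1 and 2 (log2 0.33 ± 0.23, adjusted p = 0.67). H2-Eb1, the I-E beta chain, had 21475, 16577 and 19319 in deleted pools against 14698, 21278 and 11525 in control pools (0.31 ± 0.21, adjusted p = 0.67). The control order of these genes was the same, with replicate 2 highest and replicate 3 lowest.

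The probe sets of class II genes disagreed in size. Those of H2-Aa ran from 0.18 to 0.94, and the highest had 16455, 25549 and 22274 in deleted pools against 10939, 15640 and 7759 in control pools. Its groups did not overlap (0.94 ± 0.25, adjusted p = 0.25). Those of H2-Ab1 ran from 0.16 to 0.58. H2-Ea, the I-E alpha chain, is a gene that C57BL/6 mice do not express. The brightest of its 3 probe sets had 213, 1373 and 356 in deleted pools against 120, 182 and 233 in control pools (1.45 ± 0.62, adjusted p = 0.48). The level of deleted replicate 2 stood apart, and the other H2-Ea probe sets and that of H2-Eb2 lay below the filter.

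Cd74, the invariant chain gene, had its control pools in the same order as these class II chains. It had 72638, 71676 and 74297 in deleted pools against 53028, 78978 and 39005 in control pools. Deleted pools were nearly level and control pools spread widely (72870 ± 1326 in deleted and 57004 ± 20280 in control pools, SD; log2 0.42 ± 0.22, adjusted p = 0.56). Without control replicate 2 its log2 fold change was 0.68 (adjusted p = 0.074), and without control replicate 3 it was 0.17. The probe set shared by H2-DMb1 and H2-DMb2, beta chains of the peptide editor, had 4590, 4222 and 4138 in deleted pools against 2648, 3188 and 1721 in control pools. Its groups did not overlap (0.82 ± 0.21, adjusted p = 0.23). The brightest H2-DMb2 probe set had 4007, 2569 and 2492 against 1346, 1474 and 1919 (0.92 ± 0.21, adjusted p = 0.19), also without overlap. Other H2-DMb2 probe sets gave 0.06 and 0.31, H2-DMa 0.37 on its brightest, and H2-Oa and H2-Ob, which restrain H2-DM, 0.38 and 0.49. None of the 9 editor probe sets passed by limma, and 2 were higher with p under 0.05 before adjustment.

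Control replicates 2 and 3 pulled the class II values in opposite directions. The median log2 fold change of the class II probe sets was 0.58 without control replicate 2 and 0.22 without control replicate 3. Without control replicate 2, 461 of the 27022 probe sets tested over the array passed the threshold, 197 higher and 264 lower. Of the 63 members tested 7 passed, all higher. These were H2-Q10, the H2-K1/H2-D1 probe set, Psmb8, 1 H2-Aa, 2 H2-Ab1 and the H2-DMb1/H2-DMb2 probe set. Without control replicate 3 the only members called were H2-Q10 and the H2-K1/H2-D1 probe set, among 198 over the array (184 higher and 14 lower).

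The activators of the 2 classes did not move alike in size, and neither passed. Nlrc5, the class I activator, had 763, 800 and 777 in deleted pools against 482, 409 and 736 in control pools, without overlap (log2 0.57 ± 0.25, adjusted p = 0.48). Ciita, the class II activator, had 494, 416 and 311 in deleted pools against 499, 537 and 341 in control pools, with overlap (-0.17 ± 0.29, 95% interval -0.82 to 0.48). The difference between these genes was not tested, and the other Ciita probe sets lay below the filter. Cd1d1, which presents lipids to natural killer T cells, gave opposite signs on its probe sets. The first had 746, 498 and 617 in deleted pools against 750, 829 and 847 in control pools (-0.40 ± 0.21, adjusted p = 0.57). That is the member whose deleted pools all lay below the control pools among those tested. The second gave 0.08 ± 0.42. H2-Ke6 had a log2 fold change of -0.14 ± 0.13.

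Class I and class II probe sets both lay higher in deleted pools, by amounts that differed less than the pools did. The median log2 fold change was 0.39 over 25 tested class I probe sets and 0.37 over 18 tested class II probe sets. Mean log2 signal over the class I probe sets was 11.64, 11.91 and 11.97 in deleted pools against 11.21, 11.37 and 11.35 in control pools. Over the class II probe sets it was 11.87, 11.80 and 11.73 against 11.22, 11.65 and 11.03 (spread in controls 0.32, SD, against 0.09 for class I). The class I mean minus the class II mean was 0.04 ± 0.24 in deleted and 0.01 ± 0.30 in control pools (SD, n = 3 each), a difference of 0.03 that is small beside either spread. Its sign was not stable, since leaving out each pool in turn gave -0.12 to 0.19, the unfiltered probe sets gave -0.19 and the brightest probe set per gene gave -0.13. No test was run on these means, since members share sequences and regulators and are no replicates. Within class I the classical chains had a mean difference of 0.57 and the class Ib chains of 0.37.

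Other genes of the pathway came from lists chosen with earlier results of these data known. None of the genes in the 5 lists that follow passed by limma. Of 9 tested genes from a list of cathepsins and other genes chosen for class II processing, 6 were higher with p under 0.05 before adjustment and none lower (median log2 0.41). The 6 were Ctss, Ctsd, Ctsh, Ctsc, Lgmn and Ifi30, and whether each acts on class II here was not tested. Ctsd, an aspartyl protease gene, stood at 0.57 ± 0.11 (adjusted p = 0.086) and Ctss, whose product trims the invariant chain, at 0.88 ± 0.19 (adjusted p = 0.13). Of 17 tested transcription factor and interferon gamma pathway genes 4 were higher with p under 0.05 before adjustment (median 0.14). Irf1, a factor that interferon gamma induces, had 12199, 13187 and 12625 in deleted pools against 8650, 8592 and 8012 in control pools, without overlap (0.59 ± 0.10, adjusted p = 0.060). Irf8, a factor of myeloid and B cells, stood at 0.71 ± 0.25. Ifng itself had 164, 665 and 698 in deleted pools against 197, 198 and 402 in control pools, with overlap (0.76 ± 0.56, adjusted p = 0.70). Of the 17 genes 13 lay above 0. The others were Rfx5 at -0.002, Rfxap at -0.11, Nfyb at -0.20 and Rela at -0.07. Of 13 tested interferon-inducible genes 5 were higher by the same measure and none lower (median 0.38), with Irgm2 at 0.77 ± 0.20 and Cxcl10 at 0.71 ± 0.20. For 8 chaperones of class I folding no gene was past an unadjusted p of 0.05, the median was 0.09. Calr (calreticulin) stood at 0.24 ± 0.11 and Canx (calnexin) at 0.20 ± 0.10. Among 11 costimulation and CD1-like genes 1 was higher and 1 lower with p under 0.05 before adjustment, Cd86, a ligand of CD28 on T cells, at 0.96 ± 0.23 (adjusted p = 0.20) and Azgp1 at -1.04 ± 0.35.

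Markers of other cells were read beside these groups. Of the macrophage markers 17 of 18 tested had values above 0 (median log2 1.02), and the scavenger receptor gene Marco had 3620, 4061 and 3280 in deleted pools against 522, 1230 and 684 in control pools. It rose (2.26 ± 0.28, adjusted p = 0.012), as did Gpnmb (1.86 ± 0.18, adjusted p = 0.0061), Mpeg1, Cd68, C1qa, C1qb and Chil3. Dendritic cell markers were above 0 in 9 of 9 tested (median 0.56) and none passed by limma, 5 being higher with p under 0.05 before adjustment. Among them Ccr7, a homing receptor of mature dendritic cells, stood at 1.27 ± 0.30 and Ccl22 at 1.24 ± 0.24. Their signals summed to 14788 to 19887 in deleted pools and 8902 to 13718 in control pools. Of 9 tested B cell markers Fcer2a alone rose (2.13 ± 0.19, adjusted p = 0.0060), with a list median of 0.29 and sums of 16203 to 20652 in deleted and 8044 to 15054 in control pools. T and NK cell markers had a median of 0.31 over 10 tested, none of them called, with Cd2 at 0.84 ± 0.25 and Nkg7 at 0.89 ± 0.35. They summed to 14967 to 19982 in deleted and 9520 to 21185 in control pools. Trem2, Flt3, Xcr1, Siglech, Batf3, Pax5, Cr2, Cd4 and Cd8b1 lay below the filter, and Irf8 and Batf3 stand in both the dendritic cell and the transcription factor list. The part of these cells in the MHC values was not tested.

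Type II cell markers had a median log2 fold change of 0.10 over 13 tested genes, none called, with Il33 at 0.67 ± 0.27 and Muc1 at 0.55 ± 0.23. Their mean log2 signal was 15.83, 15.97 and 15.98 in deleted pools against 15.77, 16.01 and 15.57 in control pools. Among control pools replicate 2 was thus highest and replicate 3 lowest by this mean, the order also seen for class II chains (12.70, 13.34 and 12.42). By summed signal replicate 2 was again the highest control pool (1067190), but replicate 1 was the lowest (888530). A link between type II cell markers and class II values was not tested. Airway cell markers ran the other way between genotypes, with all 12 below 0 (median -0.40), and Ccdc153 and Sox2 fell. Endothelial markers had a median of -0.10 over 10 tested, none called, with Vwf at -0.20 ± 0.15 and Eng at -0.12 ± 0.12.

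**Figure D4:**
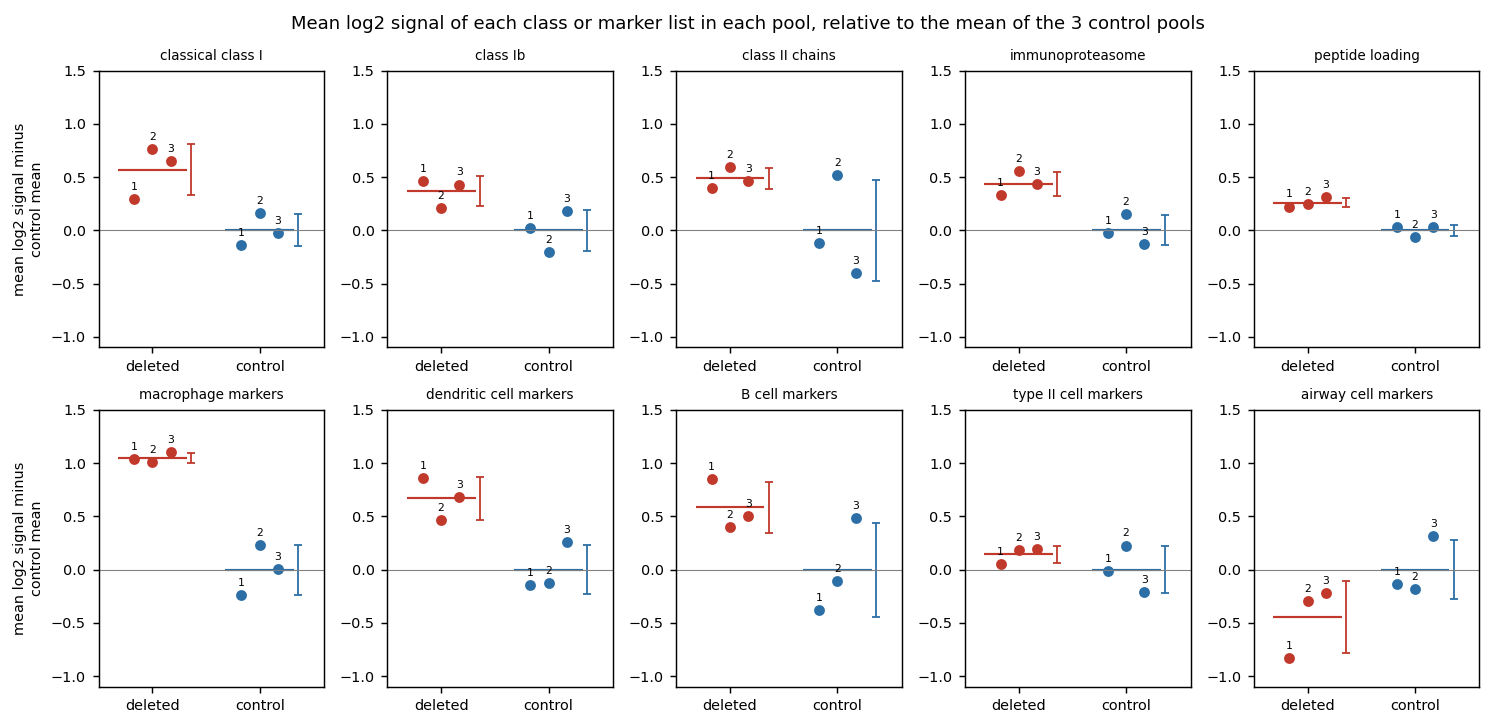
Mean log2 signal of 5 groups of members (top) and 5 marker lists (bottom) in each pool, minus the mean of the 3 control pools; Insig1-deleted left of floxed control, with replicate numbers, a line at the mean and a bar for the SD (n = 3). Classical class I, class Ib, immunoproteasome and peptide loading means do not overlap between genotypes, class II chains overlap through control replicate 2, and macrophage markers are the list with the widest gap.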

How the data were processed

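Signal intensities of 45101 probe sets on 6 Affymetrix arrays were deposited by the authors on a linear scale, and per the submitters' processing notes MAS5, with no version stated, made them. The values show that each array had been scaled to a trimmed mean of about 1493. MAS5 treats each array alone and gives dim probe sets noisy ratios. Detection calls were not used here, and the number of arrays limits the precision.

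Values below 1 were raised to 1 before taking log2, and arrays were not normalized further. After 64 controls were left out, probe sets below the 40th percentile of mean log2 signal (8.08, a signal of 271) were dropped, leaving 27022. Of the probe sets that are not controls, 34945 name 1 gene, 932 several and 9160 none in the platform annotation. The test was limma's (version 3.58.1, R 4.3.3, lmFit and two-sided eBayes with trend). Its p-values were adjusted by Benjamini-Hochberg over all probe sets tested, with 0.05 as threshold. Intervals of fold changes are 95% limma intervals. With 3 pools against 3 an exact permutation test cannot go below 0.1, so none was run. The labels do not number the mice per pool, so p-values measure the spread between pools.

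Members, lists and motifs were chosen with earlier results of these data known. Values per pool are given for every called member, the brightest probe set of the main genes and the smallest p in each role, and others after their values were seen. Lists use the brightest probe set naming a gene alone, and their called genes, or else the 2 smallest p, are named. Some further list genes, Ifng among them, were named after their values were seen. The steps were tested on simulated data, and figures were drawn with matplotlib 3.10.9. Same-numbered pools correlated at 0.107, 0.054 and 0.133 in their deviations from the group means. Deleted and control pools of different numbers correlated at -0.134 to 0.019, all below these. The labels name no pairs, so the reported fit did not treat the pools as paired. A fit with the replicate block is among the alternative settings.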

Additional observations from a re-analysis of the deposited data

How the results depend on the processing

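The 24 named probe sets gave 351 values under 15 alternative settings. Of these 335 kept their direction and their side of the threshold, 9 lost a call, 4 gained one, and 3 changed sign without a call in either setting. Most named probe sets were not called in the reported fit and counted as kept by staying uncalled, so the 335 say little about calls. All 9 lost calls were of the 2 called members, H2-Q10 and the H2-K1/H2-D1 probe set. The sign changes were Ciita without deleted replicate 3 (0.009; -0.373 to 0.009 over the pools left out), and H2-Aa (-0.034; -0.034 to 0.436) and Tap2 (-0.003; -0.003 to 0.167) without control replicate 3. Without an intensity trend no member was called, 0 against 2, and 4 probe sets of the whole array were, with adjusted p of 0.075 for H2-Q10 and 0.17 for the H2-K1/H2-D1 probe set. With the brightest probe set per gene, which leaves out those naming several genes, 12952 probe sets were tested, 32 of them members. Of the members 1 was called (H2-Q10), while over all tested 81 were called higher and 3 lower. Before adjustment 9 of the 32 were higher with p under 0.05 by limma, and the share of all tested at that measure was not taken for this fit. The filter at the 60th percentile left 1 call too, the H2-K1/H2-D1 probe set, since H2-Q10 lies below it. Calls over the array, 87 in the reported fit, were 131 with a common median, 170 with array weights and 145 with the replicate block, where 3 members passed (the H2-D1 probe set with the smallest p besides the 2). Leaving out each pool in turn gave 3 to 461 calls over the array and 0 to 7 members called. Of 63 members tested, 11 to 30 were higher and 0 to 2 lower with p under 0.05 before adjustment. The share of all probe sets at that unadjusted measure was not taken for these fits, so these counts have no background beside them. The median log2 fold changes of class I (0.33 to 0.50) and class II (0.22 to 0.58) stayed above 0 in these fits. Causes of these shifts were not tested.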

Other observations

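Among H2 probe sets that share their symbols with other genes and so fall outside the rule, the one naming H2-Ob and Gm20506 had signals of 368, 266 and 38 in deleted pools and 258, 58 and 216 in control pools. The one naming H2-Q2, H2-D1 and Gm38417 had 186, 140 and 79 in deleted pools and 132, 252 and 124 in control pools. Both lay below the filter and their groups overlapped. The dimmest H2-Ea probe set, also below the filter, had 64, 88 and 67 in deleted pools and 8, 8 and 14 in control pools, which do not overlap.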
